A study of Caenorhabditis elegans with 50 samples.

Results

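The UDP-glucuronosyltransferase genes (ugt) of Caenorhabditis elegans were followed through 10 strains with 5 RNA-seq libraries each. They were chosen by name: an entry of the deposited count table had to name 1 gene alone, written as ugt and a number. That gave 36 genes among 33458 entries that name a gene. They came from 38 rows, because ugt-41 and ugt-51 had 2 rows each, which were summed. Another 16 entries name 29 ugt genes together with neighbours, 12 of them with ugt genes only, and these joint entries were not used. All 36 genes matched a protein-coding gene in the WBcel235 annotation of Ensembl, with coding lengths of 1503 to 1674 bases.

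UDP-glucuronosyltransferases are phase II detoxification enzymes. They join a sugar from a UDP-sugar donor to small fat-soluble molecules such as bile pigments, steroids, plant toxins and drugs, which makes them easier to excrete. In nematodes the sugar is often glucose, and several worm ugt genes are induced by benzimidazole anthelmintics, with ugt-22 linked to the response to albendazole. Much of this chemistry takes place in the worm intestine. DAF-16 is the worm FOXO transcription factor. Signalling through DAF-2, the insulin/IGF-1 receptor, keeps it out of the nucleus, and worms without a germline also need it for long life.

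The libraries held poly(A) RNA of whole, synchronized day 1 adults, and the design text of the series calls the 5 samples of a strain biological. The first mutant strain was daf-2(e1370), with its doubles daf-16(mg54);daf-2(e1370) and daf-16(mu86);daf-2(e1370). The second was daf-2(e1368), a weaker allele, with daf-16(mg54);daf-2(e1368) and daf-16(mu86);daf-2(e1368). Wild type (WT) was the reference for these 6 strains. The 7 strains were raised at 15 °C for 72 h and then moved to 20 °C, and are called the daf-2 family here. The egg lay of daf-2(e1370) alone is described as 6 h ahead of the control strains, so this lead and the genotype cannot be told apart in its comparisons. The germline-less strain glp-1(e2141) carries a temperature-sensitive mutation in a Notch receptor and was set against daf-16(mg54);glp-1(e2141) and daf-16(mu86);glp-1(e2141). These 3 strains, the glp-1 family, were kept at 25 °C for 48 h to remove the germline, and no WT at that temperature was analysed here. The mg54 allele is a nonsense mutation of daf-16 and mu86 is a deletion.

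Library totals were 13.82 to 23.81 M fragments (M, mega) in the glp-1 family and 19.89 to 34.25 M in the daf-2 family, apart from replicate 2 of daf-2(e1370) with 2.37 M. Levels are given as CPM, the count relative to a library total that was scaled (by TMM) within each family. The daf-16 entry gave 94.5 to 110 CPM in daf-16(mg54);daf-2(e1370), against 179 to 270 CPM in daf-2(e1370), and 97.9 to 114 CPM in daf-16(mg54);daf-2(e1368), against 192 to 208 CPM in daf-2(e1368). In daf-16(mg54);glp-1(e2141) it gave 119 to 230 CPM, against 142 to 253 CPM in glp-1(e2141), and these ranges overlapped. In the mu86 strains daf-16 was not low, at 148 to 505 CPM, but a joint entry at the same locus reached 92.7 to 341 CPM there. That joint entry stayed at or below 0.834 CPM in every other library except the shallow replicate 2 of daf-2(e1370), at 18.6 CPM on 41 counts. That library enters every daf-2(e1370) comparison, and the reason for its value was not tested. Summed oocyte and germline markers (13 genes) were 8.59 to 33.8 CPM in the glp-1 family, against 6340 to 14510 CPM in the daf-2 family. Summed intestinal markers (5 genes) were 2721 to 7108 CPM in the glp-1 family and 1525 to 3725 CPM in the daf-2 family. In the daf-2(e1370) doubles, replicates 0 and 1 stood apart from the other 6 libraries of those strains: their summed sperm markers were 55.6 to 447 CPM against 1299 to 1906 CPM. In the glp-1 family, glp-1(e2141) replicate 0, daf-16(mg54);glp-1(e2141) replicate 2 and daf-16(mu86);glp-1(e2141) replicate 3 stood apart, with intestinal markers at 2721 to 3642 CPM against 3945 to 7108 CPM in the other 12.

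Most of the genes lie on chromosome V, which holds 20 of the 36. Chromosome IV holds 7, chromosomes I and X hold 3 each, III holds 2 and II holds 1. In the daf-2 family 29 genes had enough counts to be tested and in the glp-1 family 31. Both ugt-25 and ugt-28 were listed at 0 in all 50 libraries. Their shared span (I, 4603048 to 5263428) holds 134 entries. A joint entry there for ugt-26 and ugt-27 was also at 0 in all 50 libraries. Whether these genes were not expressed or not estimated cannot be told from the counts. Separately, ugt-38 and ugt-57 never passed 3 and 10 counts. Only the glp-1 family had enough counts for ugt-10 and ugt-56, and only the daf-2 family for ugt-42. Another special case was ugt-62, whose locus was listed at 0 in all 30 libraries of 6 daf-2 family strains. In daf-2(e1370) it had 58.1 to 86.9 CPM, and its whole locus, III, 4332912 to 4546274, was at 0 in the same 30 libraries, so it was treated as not estimated there and tested in the glp-1 family alone.

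The genes differed widely in level. Per kilobase of coding sequence and averaged over the 10 strains, ugt-22 was the most abundant at 341 CPM per kb. It was followed by ugt-41 at 92.1, ugt-47 at 92.0, ugt-58 at 71.5 and ugt-63 at 69.9 CPM per kb. Among genes tested in both families the lowest were ugt-18 at 0.399 and ugt-59 at 0.341 CPM per kb. Libraries of both families enter these averages although each family was normalised separately.

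**Figure D1:**
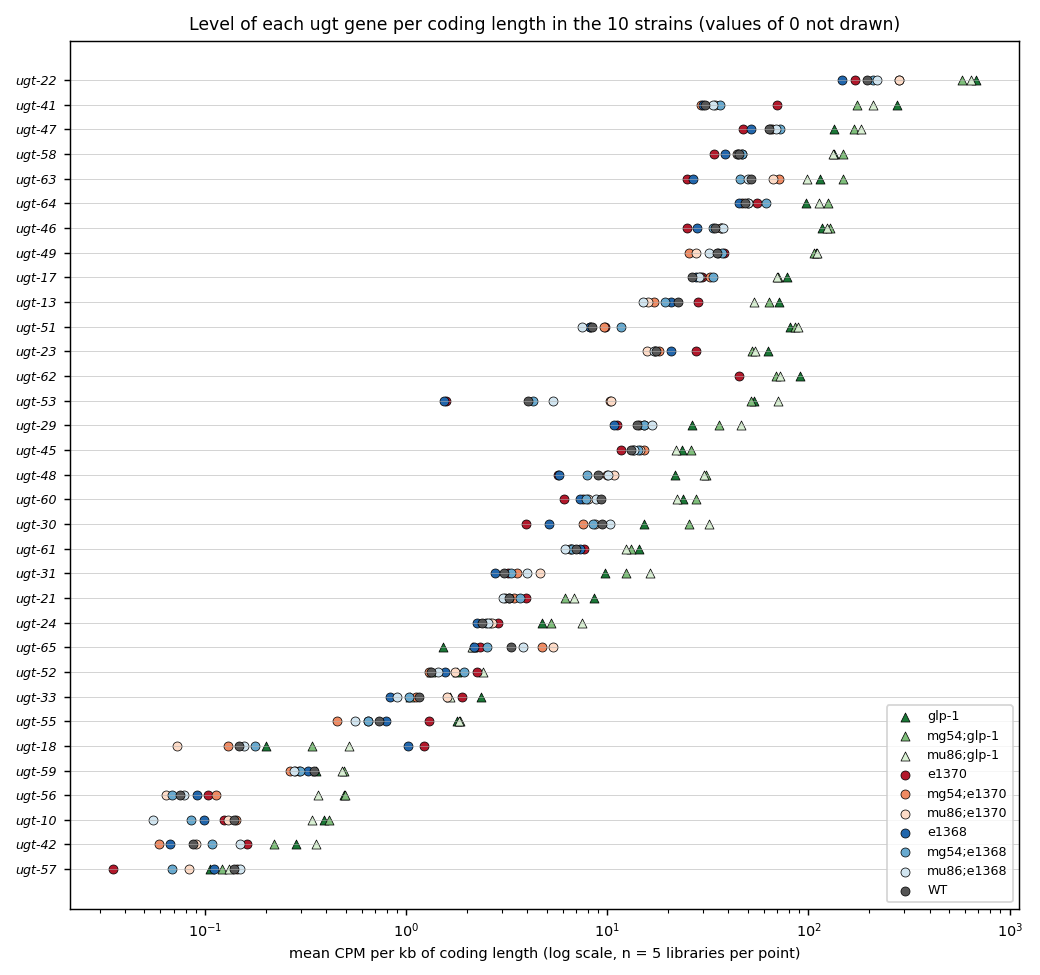
Level of each ugt gene per kilobase of coding sequence (CPM per kb, log axis), 1 point per strain as the mean of 5 libraries, with triangles for the glp-1 family and circles for the daf-2 family; genes are ordered by their mean over the strains, 4 of those at the bottom were too low to test in 1 or both families, and neither values of 0 nor genes with a mean of at most 0.05 CPM per kb (ugt-25, ugt-28, ugt-38) are drawn. The glp-1 family values of ugt-22, 578 to 680 CPM per kb, stand furthest to the right.

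The first comparison asked which ugt genes differ with daf-16 in long-lived daf-2(e1370) worms. A call here is a Benjamini-Hochberg adjusted p under 0.05 from edgeR's quasi-likelihood test over all entries, and each log2 difference carries its standard error (SE). Against the mg54 double, 15 of 29 genes passed, 5 higher and 10 lower in daf-2(e1370), where 22.3% of all 11774 entries passed. Against the mu86 double 15 passed as well, 4 higher and 11 lower, with 21.5% of all entries. Of these, 13 passed in the same direction against both doubles, where 17.2% of all entries did. The 4 higher genes compare with 9.32% of all entries and the 9 lower ones with 7.92%. The doubles share the daf-2(e1370) libraries, and their own same-numbered libraries deviated together (lowest r 0.89). The 2 comparisons are therefore not independent. Among all entries 10.4% were lower and 11.8% higher against the mg54 double, and 10.3% lower and 11.2% higher against the mu86 double. The median log2 difference was 0.04 over the tested ugt genes and 0.02 over all entries against the mg54 double, and -0.09 and 0.02 against the mu86 double. When only the strains compared were fitted, 6 genes passed against the mg54 double, with 9.18% of all entries, and 8 against the mu86 double, with 11.9%.

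The gene with the clearest daf-16 difference was ugt-53 (genome build ce10, chromosome V, 2849291 to 2852040). It had 2.198, 1.53, 2.71, 3.36 and 2.35 CPM in daf-2(e1370). The mg54 double gave 21.6, 25.0, 10.9, 9.94 and 12.1 CPM, and the mu86 double 21.5, 21.4, 14.8, 10.97 and 12.3 CPM. All 5 daf-2(e1370) libraries lay below all 10 double-mutant libraries. The log2 difference was -2.73 (SE 0.274, adjusted p = 3.47e-09) against the mg54 double and -2.75 (SE 0.275, adjusted p = 2.66e-09) against the mu86 double. In bulk RNA, fewer cells of a type and less RNA per cell cannot be told apart. The 4 double-mutant libraries that stood apart had 21.4 to 25.0 CPM and the other 6 had 9.94 to 14.8 CPM. Without those 4 libraries the log2 differences were -2.19 (adjusted p = 2.73e-08) and -2.41 (adjusted p = 3.83e-09).

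Next came ugt-63 (V, 5108179 to 5110751), one of the 5 most abundant members. Its values were 44.4, 39.1, 38.0, 30.5 and 37.0 CPM in daf-2(e1370). They were 83.8, 53.2, 149, 126 and 130 CPM in the mg54 double, and 89.3, 71.9, 112, 101 and 130 CPM in the mu86 double. Again no daf-2(e1370) library reached a double-mutant one. The fitted log2 difference came to -1.52 (SE 0.257, adjusted p = 3.79e-05) against the mg54 double and -1.42 (SE 0.256, adjusted p = 8.75e-05) against the mu86 double. The 4 libraries that stood apart gave the lowest ugt-63 values of the doubles, 53.2 to 89.3 CPM.

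The most abundant member, ugt-22 (IV, 13638957 to 13645899), was also lower. It had 321, 272, 229, 263 and 277 CPM in daf-2(e1370), against 366 to 534 CPM in the mg54 double and 396 to 487 CPM in the mu86 double. The groups did not overlap. It differed by log2 -0.74 (SE 0.106, adjusted p = 3.35e-06) against the mg54 double and -0.72 (SE 0.106, adjusted p = 4.16e-06) against the mu86 double. The WBcel235 annotation places an exon of srz-29, a chemoreceptor gene, over 309 bases of ugt-22 on the opposite strand, and the sources used here do not say whether the counting used strand.

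The call for ugt-30 (V, 15121740 to 15125247) was less firm. It had 4.89, 3.75, 8.60, 9.63 and 4.79 CPM in daf-2(e1370), 6.93, 6.64, 21.7, 14.2 and 11.4 CPM in the mg54 double and 9.26, 6.14, 23.8, 16.5 and 13.7 CPM in the mu86 double. The ranges overlapped in both comparisons. On the log2 scale it differed by -0.99 (SE 0.336, adjusted p = 0.0328) against the mg54 double and -1.17 (SE 0.336, adjusted p = 0.0106) against the mu86 double. The mg54 call was lost in 5 of the 10 fits that left out 1 of the compared libraries. Fitting only the strains compared gave -0.93 (adjusted p = 0.186) and -1.14 (adjusted p = 0.0943). The 4 double-mutant libraries that stood apart held 6.14 to 9.26 CPM and the other 6 held 11.4 to 23.8 CPM. Without those 4 the log2 differences were -1.37 (adjusted p = 0.00136) and -1.58 (adjusted p = 0.000238).

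The other 5 genes lower against both doubles were picked out from their calls. Their log2 differences against the mg54 and mu86 doubles were -0.95 and -1.13 for ugt-65, -0.83 and -0.95 for ugt-48, and -0.58 and -0.57 for ugt-46. For ugt-58, whose level is among the 5 highest, they were -0.47 and -0.39, and for ugt-45 they were -0.37 and -0.31. In ugt-65, daf-2(e1370) had 5.12, 5.43, 1.36, 1.80 and 3.98 CPM, the 1.36 resting on 3 counts of the shallow library, and no library of either double fell below 6.44 CPM. In ugt-58, daf-2(e1370) libraries held 51.8 to 56.6 CPM, and those of the doubles 56.4 to 92.9 CPM, so that the ranges met. Fitting only the strains compared lost both calls of ugt-46 (adjusted p = 0.125 and 0.0929), ugt-58 (0.105 and 0.119) and ugt-45 (0.0864 and 0.182). That fit also lost the mg54 calls of ugt-48 (adjusted p = 0.0869) and ugt-65 (adjusted p = 0.105). The ugt-45 call against the mu86 double was lost in 6 of 10 fits that left out a library. One further gene was lower against the mg54 double alone, ugt-47 at -0.49 (adjusted p = 0.0422), and 2 against the mu86 double alone, ugt-29 at -0.45 (adjusted p = 0.0472) and ugt-31 at -0.50 (adjusted p = 0.0452). Each of these calls was lost in at least 7 of 10 such fits.

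**Figure D2:**
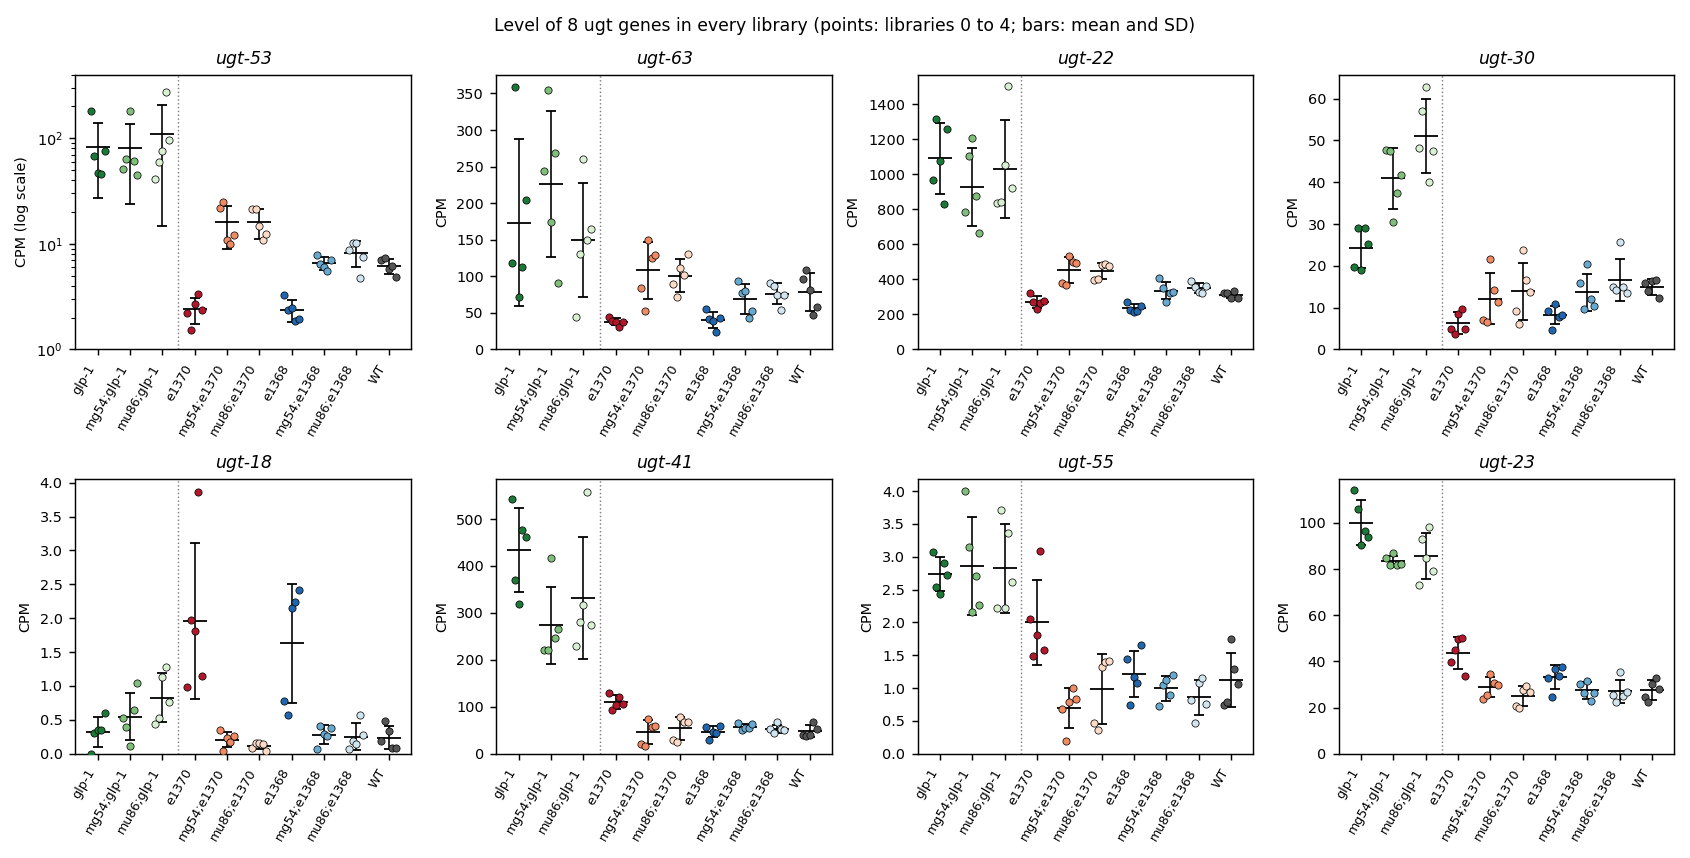
CPM of 8 ugt genes in each of the 50 libraries (points; bars are strain means with SD, n = 5), with the glp-1 family left of the dotted line and the daf-2 family right of it; the ugt-53 panel has a log axis. In daf-2(e1370) ugt-53 stays at or below 3.36 CPM while its doubles hold at least 9.94 CPM.

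On the higher side the largest difference belonged to ugt-18 (V, 12820315 to 12822737), a gene of very low level. It had 0.985, 1.98, 1.81, 3.86 and 1.15 CPM in daf-2(e1370), resting on 4 to 114 counts. In the doubles the counts were 1 to 9 with mg54 and 1 to 5 with mu86, and no library passed 0.345 CPM. The groups did not overlap. The fit gave a log2 difference of 3.21 (SE 0.552, adjusted p = 4.63e-05) against the mg54 double and 4.01 (SE 0.59, adjusted p = 3.7e-06) against the mu86 double. At such counts the fitted size rests on few fragments. A joint entry for ugt-15 and ugt-16 lies within 10 kb of ugt-18, and whether near-identical copies shared reads was not tested.

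The second, ugt-41 (V, 7154524 to 7169232), is an abundant gene that shares its locus with a joint entry for ugt-36 and ugt-39. It had 129, 92.2, 105, 120 and 106 CPM in daf-2(e1370). The mg54 double had 21.7, 16.7, 75.1, 57.5 and 59.5 CPM and the mu86 double 29.3, 25.8, 78.6, 68.4 and 68.5 CPM. All daf-2(e1370) libraries were above all those of the doubles. The log2 difference came to 1.26 (SE 0.307, adjusted p = 0.00294) against the mg54 double and 1.03 (SE 0.305, adjusted p = 0.0137) against the mu86 double. The 4 libraries that stood apart held 16.7 to 29.3 CPM and the other 6 held 57.5 to 78.6 CPM. Without those 4 the differences were 0.80 (adjusted p = 0.00256) and 0.61 (adjusted p = 0.016).

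Of the remaining pair, ugt-23 (X, 9921441 to 9925272), named because it passed against both doubles, averaged 43.6 ± 7.03 CPM in daf-2(e1370), 28.8 ± 4.31 CPM in the mg54 double and 24.9 ± 4.25 CPM in the mu86 double (SD, n = 5 each). Its log2 differences were 0.59 (SE 0.145, adjusted p = 0.00304) and 0.80 (SE 0.145, adjusted p = 8.74e-05). The low-level ugt-55 (V, 12255585 to 12258787), next to ugt-56, averaged 2.001 ± 0.644 CPM in daf-2(e1370), 0.698 ± 0.304 CPM in the mg54 double and 0.991 ± 0.531 CPM in the mu86 double (SD, n = 5 each). Its log2 differences were 1.53 (SE 0.371, adjusted p = 0.00276) and 1.03 (SE 0.363, adjusted p = 0.04), and without the 4 libraries that stood apart the mu86 difference was 0.55 (adjusted p = 0.205). One gene was higher against the mg54 double alone, ugt-49 at 0.59 (adjusted p = 0.0393), and without those 4 libraries it was at 0.27 (adjusted p = 0.274).

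In the 4 libraries that stood apart, other tissue markers were low too. Summed hypodermal markers were 638 to 1396 CPM against 2276 to 2850 CPM in the other 6 libraries of the doubles, and muscle markers 646 to 1192 CPM against 2211 to 2421 CPM. Intestinal markers were 2119 to 2518 CPM against 2630 to 3725 CPM, and oocyte and germline markers 10240 to 11150 CPM against 6555 to 9092 CPM. The daf-2(e1370) libraries themselves had intestinal markers at 1525 to 3267 CPM and oocyte and germline markers at 10320 to 14510 CPM. The part of these differences in the ugt results was not tested beyond leaving the 4 libraries out. In that fit 15 genes were called against the mg54 double, where 17.3% of all entries were, and 14 against the mu86 double, where 22.4% were. They were not the same genes. Against the mg54 double ugt-49 was no longer called and ugt-60 was, at -0.68 (adjusted p = 0.0147). Against the mu86 double ugt-31, ugt-45 and ugt-55 were no longer called, while ugt-47 was, at -0.68 (adjusted p = 0.00188), and ugt-60, at -0.78 (adjusted p = 0.00435).

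**Figure D3:**
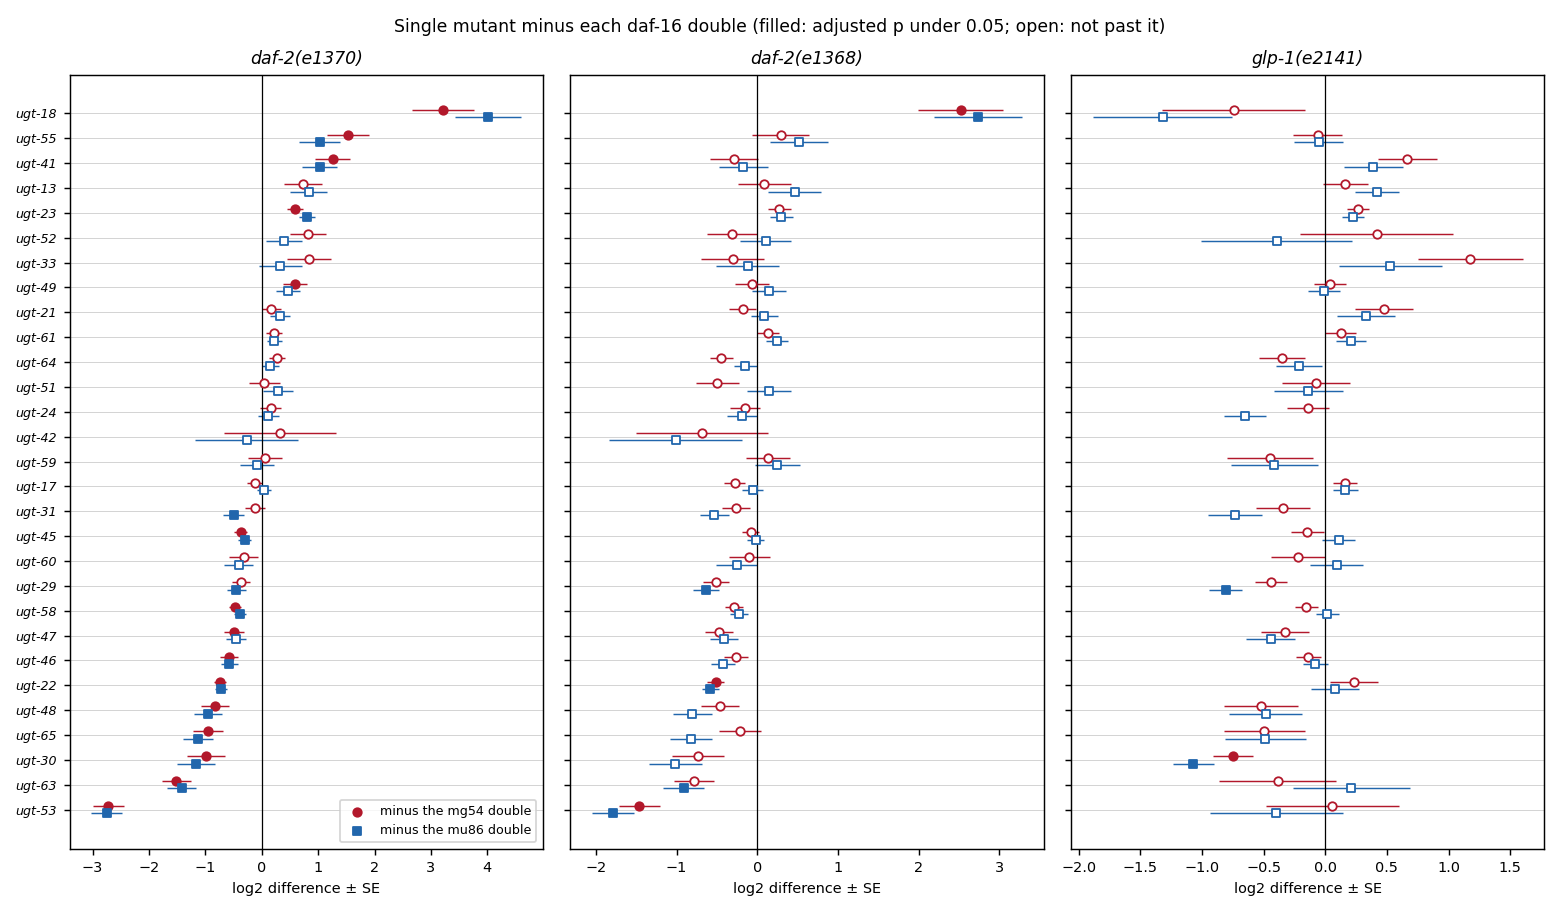
Log2 difference (single mutant minus its daf-16 double) of each ugt gene tested in the daf-2 family, with SE bars, for the mg54 double (circles) and the mu86 double (squares). The panels show daf-2(e1370) at the left, daf-2(e1368) in the middle and glp-1(e2141) at the right, each with its own axis range. Genes tested in the glp-1 family but not in the daf-2 family (ugt-10, ugt-56, ugt-62) are not drawn. Filled points pass an adjusted p of 0.05. In daf-2(e1370) ugt-53 lies near -2.7 and ugt-18 above 3, while in glp-1(e2141) the filled points are ugt-30 and, for mu86, ugt-29.

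With the weaker allele fewer genes passed. Against the mg54 double 3 of 29 genes passed in daf-2(e1368), where 2.83% of all entries did, and against the mu86 double 5 passed, where 4.24% did. The 3 genes called against both doubles, for which the share of all entries was 2.17%, were ugt-18 (higher, as 1.37% of all entries) and ugt-22 and ugt-53 (lower, as 0.798%), and each was also called in daf-2(e1370) in that direction. Replicate numbers paired these strains. A replicate block was fitted over the whole daf-2 family, which includes strains whose numbers did not pair. With it 9 genes passed against the mg54 double (1 higher, 8 lower), with 5.91% of all entries. Against the mu86 double 10 passed (1 higher, 9 lower), with 8.79%.

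In daf-2(e1368), ugt-53 had 3.26, 2.37, 2.49, 1.85 and 1.95 CPM. The mg54 double gave 7.87, 6.38, 6.10, 5.53 and 7.10 CPM and the mu86 double 8.78, 10.2, 10.2, 4.70 and 7.48 CPM. The daf-2(e1368) libraries lay below all of the doubles. The fit put the log2 difference at -1.46 (SE 0.256, adjusted p = 0.000347) against the mg54 double and -1.79 (SE 0.258, adjusted p = 1.63e-05) against the mu86 double. For ugt-22, daf-2(e1368) had 273, 223, 211, 221 and 248 CPM, the mg54 double 410, 348, 273, 320 and 331 CPM and the mu86 double 393, 354, 329, 323 and 363 CPM. The highest daf-2(e1368) library met the lowest of the mg54 double, and the mu86 double lay wholly above. Its log2 differences were -0.52 (adjusted p = 0.00259) and -0.58 (adjusted p = 0.000462).

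The low-count ugt-18 averaged 1.63 ± 0.879 CPM in daf-2(e1368) on 18 to 88 counts, against 0.284 CPM with mg54 and 0.251 CPM with mu86 on 2 to 12 and 2 to 11 counts (means of 5). Its log2 differences were 2.52 (SE 0.523, adjusted p = 0.00295) and 2.74 (SE 0.543, adjusted p = 0.00148). Against the mu86 double, ugt-63 was also lower at -0.91 (adjusted p = 0.0297) and ugt-29 at -0.63 (adjusted p = 0.0172). Against the mg54 double they were at -0.78 (adjusted p = 0.101) and -0.51 (adjusted p = 0.0924), and with the replicate block at -0.78 (adjusted p = 0.039) and -0.50 (adjusted p = 0.0041), past the threshold. Without the block, the ugt-63 call against the mu86 double was lost in 5 of 10 fits that left out a library, and the ugt-29 call without daf-16(mu86);daf-2(e1368) replicate 2 (adjusted p = 0.0984). The abundant ugt-41 averaged 47.2 ± 11.4 CPM in daf-2(e1368), 57.7 ± 6.61 CPM in the mg54 double and 53.2 ± 8.38 CPM in the mu86 double (SD, n = 5 each), and was not called.

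In the germline-less background 1 of 31 genes passed against the mg54 double (3.04% of all 10391 entries did) and 2 against the mu86 double (3.1%). The gene called against both, ugt-30, had 19.7, 29.0, 19.03, 29.0 and 25.1 CPM in glp-1(e2141). It had 47.7, 47.4, 30.4, 37.3 and 41.7 CPM in the mg54 double and 48.2, 57.1, 62.8, 40.1 and 47.6 CPM in the mu86 double. The glp-1(e2141) libraries lay below those of both doubles. This was a log2 difference of -0.75 (SE 0.164, adjusted p = 0.0216) against the mg54 double and -1.07 (SE 0.165, adjusted p = 0.00208) against the mu86 double. The mg54 call was lost in 5 of 10 fits that left out a library. It was also lost with the replicate block (adjusted p = 0.0714) and with all 50 libraries in 1 fit (adjusted p = 0.0545). The other call was ugt-29, which averaged 42.4 ± 3.95 CPM in glp-1(e2141) and 74.1 ± 16.9 CPM in the mu86 double (SD, n = 5 each), a log2 difference of -0.81 (SE 0.132, adjusted p = 0.00329).

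The ugt-53 values of this background were led by the 3 libraries that stood apart. It had 180, 68.0, 46.5, 45.5 and 75.0 CPM in glp-1(e2141), 51.0, 63.4, 179, 61.2 and 44.5 CPM in the mg54 double and 40.99, 59.9, 75.9, 275 and 95.3 CPM in the mu86 double. In each strain 1 library was far above the other 4, and the strains overlapped. The log2 differences were 0.06 (adjusted p = 0.977) and -0.40 (adjusted p = 0.82). Those 3 libraries held 179 to 275 CPM of ugt-53 against 40.99 to 95.3 CPM in the other 12, and 141 to 185 CPM of ugt-47 against 189 to 333 CPM.

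Leaving out these 3 libraries moved the counts. Without them 2 genes passed against the mg54 double, ugt-30 and ugt-41, the second at 0.78 (adjusted p = 0.00556). Against the mu86 double 7 passed, among them the same 2 genes, with ugt-41 at 0.57 (adjusted p = 0.0259). In the same fit 5.28% and 6.42% of all entries passed, more than with all libraries. With all libraries ugt-41 averaged 434 ± 89.1 CPM in glp-1(e2141), 274 ± 82.1 CPM in the mg54 double and 332 ± 131 CPM in the mu86 double (SD, n = 5 each), at 0.66 (adjusted p = 0.176) and 0.39 (adjusted p = 0.511). The gene not estimated elsewhere, ugt-62, had 108 to 201 CPM in glp-1(e2141), 98.0 to 141 CPM in the mg54 double and 86.4 to 150.0 CPM in the mu86 double. Its log2 differences were 0.39 (adjusted p = 0.286) and 0.33 (adjusted p = 0.401).

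Wild type shows on which side of it the mutants lie. In daf-2(e1370) 9 of 29 genes differed from WT, 3 higher and 6 lower, where 18.2% of all entries did (9.84% higher, 8.4% lower). Those higher were ugt-18 at 3.04 (adjusted p = 0.000102), ugt-41 at 1.19 (adjusted p = 0.0051) and ugt-23 at 0.65 (adjusted p = 0.00123). Among those lower were ugt-53 at -1.37 (adjusted p = 0.000274), ugt-30 at -1.29 (adjusted p = 0.00598) and ugt-63 at -1.05 (adjusted p = 0.00283). The other 3 lower genes were ugt-58, ugt-46 and ugt-48, at log2 differences of -0.42, -0.48 and -0.69. The ugt-48 call was lost in 7 of 10 fits that left out a library. All 9 genes were also called against both daf-16 doubles, which share the daf-2(e1370) libraries. In daf-2(e1370), ugt-22 was at -0.20 against WT (adjusted p = 0.224).

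The daf-2(e1370) doubles had 2 genes called against WT on the mean of both, where 1.3% of all entries were called, and both were higher, as were 0.756% of all entries. WT libraries had 7.02, 7.28, 5.71, 6.20 and 4.82 CPM of ugt-53, below every library of the doubles. The log2 difference, doubles minus WT, was 1.37 (SE 0.228, adjusted p = 0.000448). Its size rests in part on the 4 double-mutant libraries that stood apart, at 21.4 to 25.0 CPM, where the other 6 held 9.94 to 14.8 CPM. For ugt-22 the doubles averaged 454 ± 76.0 CPM with mg54 and 449 ± 46.3 CPM with mu86, and WT 312 ± 17.3 CPM (SD, n = 5 each), at 0.53 (SE 0.094, adjusted p = 0.000982). Same-numbered libraries of the mg54 and mu86 doubles deviated together (lowest r 0.89). The SE and adjusted p here, and in the interactions below, count these libraries as independent, so they can overstate the replication.

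In daf-2(e1368) 4 genes differed from WT, where 2.06% of all entries did. They were ugt-18 at 2.76 (adjusted p = 0.002), ugt-53 at -1.38 (adjusted p = 0.00116), ugt-63 at -0.96 (adjusted p = 0.034) and ugt-22 at -0.41 (adjusted p = 0.0313). The ugt-63 call was lost in 7 and the ugt-22 call in 6 of 10 fits that left out a library. Fitting all 50 libraries kept the ugt-18 call (adjusted p = 0.00178). It lost those of ugt-53 (log2 -1.37, adjusted p = 0.0871), ugt-63 (adjusted p = 0.218) and ugt-22 (adjusted p = 0.172). No gene passed between the daf-2(e1368) doubles and WT with edgeR or DESeq2, none had an unadjusted p under 0.05, and 0.425% of all entries passed. With the replicate as a block, whose numbers did not pair these strains, the counts against WT are given among the processing alternatives.

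**Figure D4:**
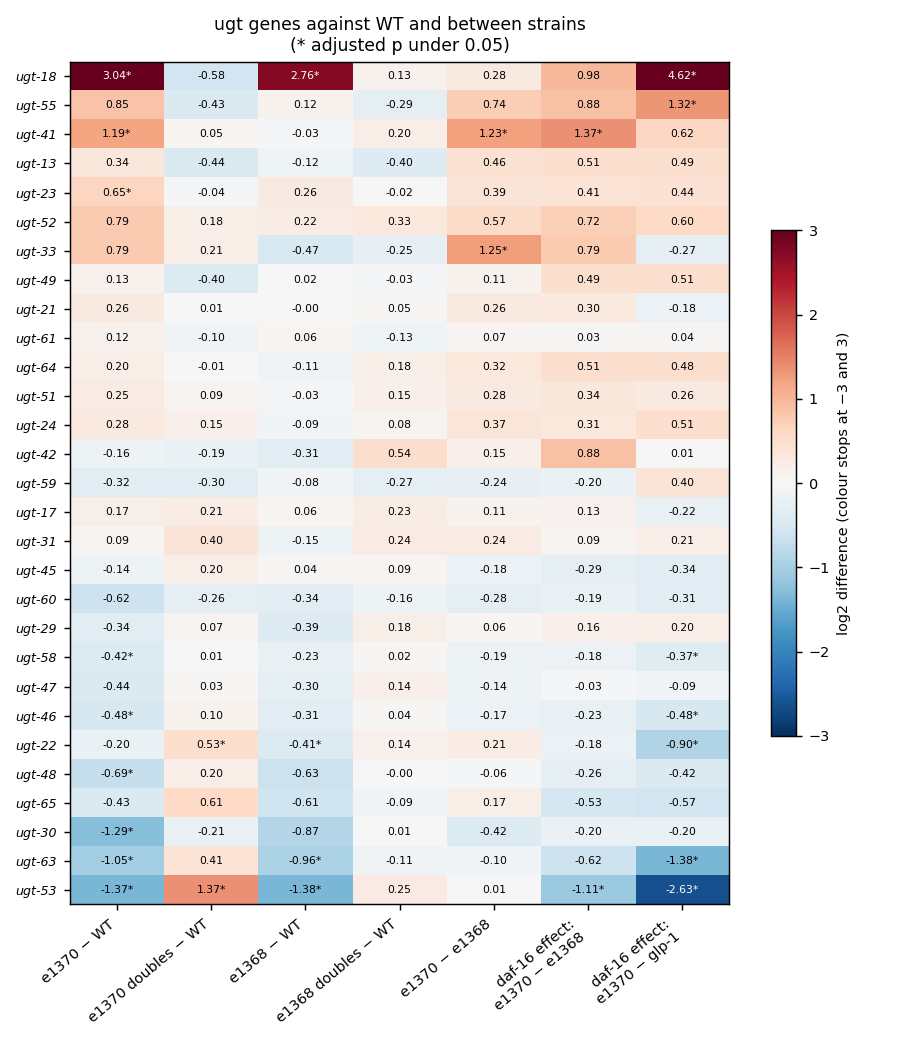
Log2 difference from WT of each ugt gene tested in the daf-2 family (rows) in daf-2(e1370), the mean of its daf-16 doubles, daf-2(e1368) and the mean of its daf-16 doubles (first 4 columns). The last 3 columns hold daf-2(e1370) minus daf-2(e1368) and the differences of daf-16 effects between backgrounds. Colours and printed values are log2 differences, and an asterisk marks an adjusted p under 0.05. The ugt-53 row is negative in both daf-2 strains and 1.37 in the daf-2(e1370) doubles.

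Between the daf-2 alleles, 2 genes were higher in daf-2(e1370) than in daf-2(e1368), where 8.43% of all entries differed and 5.67% were higher. They were ugt-41 at 1.23 (adjusted p = 0.00767) and the low-level ugt-33 at 1.25 (adjusted p = 0.0414), whose call was lost in 6 of 10 fits that left out a library. The difference of the daf-16 effects itself, tested as an interaction over the mean of both doubles, passed for 2 genes, where 4.71% of all entries passed. For ugt-41 it was 1.37 (SE 0.372, adjusted p = 0.025), the daf-16 effect being larger in daf-2(e1370). For ugt-53 it was -1.11 (SE 0.32, adjusted p = 0.0377), lower in daf-2(e1370), and without the 4 libraries that stood apart it was -0.67 (adjusted p = 0.195). Over the 29 genes the daf-16 effects in the 2 alleles had a Pearson correlation of 0.91 and, without ugt-18 and ugt-53, of 0.75, against 0.53 over all entries. This is a description across genes, which are not independent replicates.

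Between daf-2(e1370) and glp-1(e2141) the daf-16 effects differed for 7 of 31 genes, where 7.24% of all 12340 entries did in a fit of all 50 libraries. The genes with the larger effect, daf-2(e1370) minus glp-1(e2141), were ugt-18 at 4.62 (adjusted p = 6.27e-06) and ugt-53 at -2.63 (adjusted p = 0.000312). The other 5 were ugt-63 at -1.38 (adjusted p = 0.0308), ugt-55 at 1.32 (adjusted p = 0.0201), ugt-22 at -0.90 (adjusted p = 0.000152), ugt-46 at -0.48 (adjusted p = 0.0356) and ugt-58 at -0.37 (adjusted p = 0.0337). Of 30 fits that left out a library, 10 lost ugt-46, 9 lost ugt-58, 5 lost ugt-63 and 1 lost ugt-55. In the glp-1 family ugt-18 rested on 0 to 25 counts. Its strain means there ran from 0.322 CPM in glp-1(e2141) to 0.830 CPM in the mu86 double, and it was not called against either double. The fitted size of its interaction therefore rests on few fragments in both backgrounds. Over 28 genes the effects had a Pearson correlation of 0.06, against 0.53 over all entries, and a Spearman correlation of 0.47, against 0.39. Without ugt-18 and ugt-53 the Pearson correlation was 0.59. Those 2 genes differ most between these backgrounds, so a rise on removing them is no separate result. The 2 backgrounds differ in temperature and germline as well as genotype, and these cannot be told apart.

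**Figure D5:**
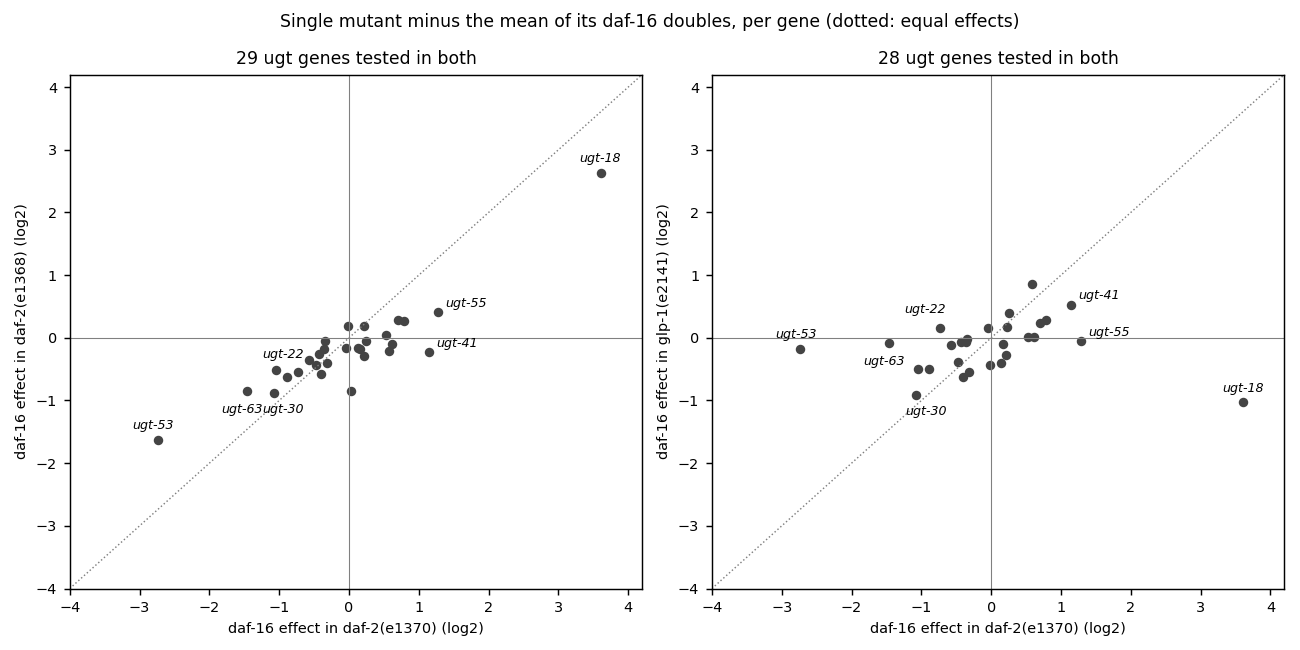
Daf-16 effect (log2, single mutant minus the mean of its daf-16 doubles) of each ugt gene in daf-2(e1370) (x axis) and in daf-2(e1368) (left panel, y axis) or glp-1(e2141) (right panel, y axis), 1 point per gene, with the dotted line of equal effects. The points of ugt-18 and ugt-53 lie far along the daf-2(e1370) axis, on the same side of 0 in daf-2(e1368), while in glp-1(e2141) ugt-53 lies near 0 and ugt-18 below it.

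Between the mg54 and mu86 doubles of 1 background no ugt gene was called. None passed with edgeR or DESeq2 in the daf-2(e1370) background (0.204% of all entries passed), in daf-2(e1368) (0.0934%) or in glp-1(e2141) (0.0192%). At an unadjusted p under 0.05 there were 1, 3 and 2 genes.

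Levels in the glp-1 family were higher for much of the ugt family. Each family was normalised separately, and temperature, germline and genotype cannot be told apart, so the values are set side by side with no test. The median ratio of library medians, glp-1 family over daf-2 family, was 2.70 over 28 ugt genes and 1.91 over all entries. For 15 of the 28, every glp-1 family library lay above every daf-2 family library, against 32.5% of all entries, and none lay wholly below, against 26.0%. The highest ratios, picked after the values were seen, were 9.03 for ugt-53 (median 63.4 CPM against 7.02 CPM), 8.48 for ugt-51 (127 CPM against 15.0 CPM) and 5.74 for ugt-41 (317 CPM against 55.2 CPM). The ratio was below 1 for ugt-65, at 0.508, and for ugt-52, at 0.784. Oocyte and germline RNA, which makes up part of every daf-2 family library, was nearly missing from the glp-1 family, as the marker sums above show, and its part in these ratios was not tested.

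Genes around the ugt family in xenobiotic metabolism were read from lists compiled with earlier results of these data known. Against both daf-2(e1370) doubles, where 17.2% of all entries passed, 12 of 33 tested glutathione S-transferases were higher and 2 lower in daf-2(e1370). These enzymes join glutathione to reactive compounds. Examples were gst-29 at 4.86 and 5.20, gst-14 at 3.46 and 3.71, gst-38 at -1.52 and -1.39 and gst-22 at -0.86 and -0.84 (log2 differences against the mg54 and the mu86 double). Their median log2 difference was 0.81, against 0.02 for all entries. Of 30 cytochrome P450s, which oxidise substrates ahead of conjugation, 5 were higher and 3 lower, among them cyp-37B1 at 4.26 and 4.56, cyp-33D1 at 2.29 and 2.78, cyp-13A2 at -3.25 and -3.17 and cyp-35C1 at -0.58 and -0.66. Of 19 short-chain dehydrogenases 6 were higher and 1 lower, with dhs-31 at 1.73 and 1.84, dhs-2 at 1.29 and 1.16 and dhs-25 at -0.37 and -0.52. Of 18 export pumps of the PGP and MRP families 2 were higher and 1 lower, with pgp-10 at 1.02 and 0.73, pgp-3 at 0.54 and 0.57 and mrp-8 at -0.64 and -0.62. Of 7 genes that make or carry UDP-sugars, the donors of the UGT reaction, 1 was lower, nstp-2 at -0.28 and -0.24. The last list held 9 tested regulators, not all of them specific to xenobiotic responses. Among these hif-1, the hypoxia-inducible factor gene, was higher at 0.35 and 0.32.

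Against both daf-2(e1368) doubles the same lists held 1 higher short-chain dehydrogenase, and 1 higher and 1 lower glutathione S-transferase, and no other list had a call, where 2.17% of all entries passed. Against both glp-1(e2141) doubles, where 1.93% passed, 1 P450 was higher and 1 lower, 1 dehydrogenase was higher, 2 glutathione S-transferases were higher and 1 lower, and 1 pump was lower. The UDP-sugar genes and the regulators had no call in glp-1(e2141).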

How the data were processed

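The deposited table holds expected counts of fragments per entry and library, which need not be whole (72.2% of values above 0 were whole within 0.02). Per the submitters' processing notes, the tools included TopHat2 2.0.9, Bowtie2 2.1.0, Cuffdiff 2.1.1, Cufflinks, cutadapt and FastQC 0.10.1, with build ce10; no source used here gives their roles or the strand setting. Counts were rounded, 314 rows naming no gene (0.187 to 0.48% of a library) were dropped, and rows with 1 name and locus were summed. Loci at 0 throughout a strain while another strain averaged at least 1000 were left out as not estimated (10 in the daf-2 family, 1 in the glp-1 family). The families were fitted separately in edgeR 4.0.16 (R 4.3.3; TMM, filterByExpr, robust quasi-likelihood), and a fit of all 50 libraries gave the interaction between them. DESeq2 1.42.0 was an alternative. The edgeR fit of each family was tested on simulated data, for daf-2(e1370) and glp-1(e2141) against their mg54 doubles. The fit of all 50 libraries, the interactions and DESeq2 were not tested in this way. Simulated libraries were drawn independently, so that test does not cover deviations shared by same-numbered libraries or libraries that stand apart. Replicate chi-square per degree of freedom was 7.21 or more over 100 pairs, so no library was counted as a repeat. Where nothing says that samples came from separate cultures, p-values measure only the spread between these samples. Replicate numbers come from the labels; same-numbered libraries deviated together (every r over 0.1) for daf-2(e1368) with its mg54 double (lowest 0.25) and mu86 double (lowest 0.18), and between the mg54 and mu86 doubles of daf-2(e1370) (0.89) and of daf-2(e1368) (0.23). Genes named by rule were up to 6 with the largest difference called against both doubles of a background, up to 4 with the largest called difference from WT or between backgrounds, and the 5 highest levels per kb; other genes were named after their values were seen. Other pathway genes were the 2 highest and 2 lowest called per list. The members and gene lists were chosen with earlier results of these data known. Names, coding lengths and exon overlaps came from WBcel235, coordinates from the deposited table; a span there may be a bundle of several genes.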

Additional observations from a re-analysis of the deposited data

Results flagged for a closer look

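The 9 genes named by rule make 90 groups of 5 libraries over the strains, and in 9 of these 1 library lay far from the other 4 by Dixon's ratio (gap to the nearest library over the range, critical value 0.71), where chance gives about 1 in 20. The highest library stood apart for ugt-53 in glp-1(e2141) replicate 0 (ratio 0.781; 180 CPM, next 75.0), daf-16(mg54);glp-1(e2141) replicate 2 (0.859; 179 CPM, next 63.4) and daf-16(mu86);glp-1(e2141) replicate 3 (0.768; 275 CPM, next 95.3). The same libraries of the 2 doubles were highest for ugt-41 (0.775 and 0.735; 417 and 559 CPM) and lowest for ugt-47 (0.718 and 0.821; 184 and 185 CPM). In daf-16(mu86);daf-2(e1368), replicate 2 was highest for ugt-30 (0.882; 25.7 CPM, next 14.9) and ugt-47 (0.732; 148 CPM, next 111).

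Daf-16 effects that differed between backgrounds by the interaction test were also noted. Between daf-2(e1370) and daf-2(e1368) they were ugt-41 at 1.37 (adjusted p = 0.025) and ugt-53 at -1.11 (adjusted p = 0.0377), in edgeR. The ugt-53 call was lost in 15 of 30 fits that left out a library, and the ugt-41 call without daf-2(e1368) replicate 1 (adjusted p = 0.0684). Between daf-2(e1370) and glp-1(e2141) they were ugt-18 at 4.62, ugt-53 at -2.63, ugt-63 at -1.38, ugt-55 at 1.32, ugt-22 at -0.90, ugt-46 at -0.48 and ugt-58 at -0.37. The ugt-18 value rests on low counts in both backgrounds.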

How the results depend on the processing

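Depth limits ugt-18 and ugt-55, and daf-2(e1370) replicate 2 is the shallowest library, at 2.37 M fragments. Of the alternative values of genes named by rule, 654 kept their direction and side of the threshold, 68 kept the direction but lost the call and 0 reversed. The fits without the 3 glp-1 family libraries that stand apart were added after seeing the data, and the 4 libraries of the daf-2(e1370) doubles were known from earlier results. DESeq2 size factors and keeping loci at 0 moved no count past 1.5 times. The cause was not tested in any case. The promoter-window alternative was not run.

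Fitting only the strains compared gave 6 genes for daf-2(e1370) against the mg54 double, 8 against the mu86 double, 2 for glp-1(e2141) against its mg54 double, 1 for daf-2(e1370) against daf-2(e1368), and 1 and 3 for the interactions with daf-2(e1368) and glp-1(e2141). Fitting all 50 libraries gave 4 for glp-1(e2141) against the mu86 double, 1 for daf-2(e1368) against WT, 1 between the daf-2 alleles and 1 for their interaction. DESeq2 gave 8 for daf-2(e1368) against the mu86 double, and 2 and 4 for glp-1(e2141) against its doubles. With no filter the daf-2 alleles gave 1 gene, and without replicates 0 and 1 of the daf-2(e1370) doubles 4. Without the 3 glp-1 family libraries the counts were 2 and 7.

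The replicate block was fitted over all strains of a family at once. With it, daf-2(e1368) gave 9 and 10 genes against its mg54 and mu86 doubles, where the numbers paired. Elsewhere the block gave 0 for glp-1(e2141) against the mg54 double, 14 and 8 for daf-2(e1370) and daf-2(e1368) against WT, 4 between the daf-2 alleles and 7 for their interaction; it moved no other count past 1.5 times.

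Leaving out 1 library at a time gave 12 to 15 genes for daf-2(e1370) against the mg54 double, 12 to 14 against the mu86 double, 3 to 4 and 4 to 6 for daf-2(e1368), and 0 to 2 and 2 to 4 for glp-1(e2141). It gave 7 to 10 for daf-2(e1370) against WT, 2 for its doubles, 2 to 4 for daf-2(e1368) against WT, 0 for its doubles, 1 to 2 between the alleles, 0 to 3 and 4 to 8 for the interactions with daf-2(e1368) and glp-1(e2141), and 0 between mg54 and mu86 doubles.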
